A study of Mus musculus with 14 samples.

Results

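The genes described here are 39 mouse genes of G2 phase and mitosis: cyclins and mitotic kinases, kinetochore and spindle checkpoint proteins, the anaphase machinery, mitotic kinesins, spindle assembly factors and the proteins that divide the cell. They were chosen by name, with earlier results of these data known, and all 39 were found among the 36413 gene names of the array. Of the 25896 gene names with signal enough to be tested, 38 were of this set. The exception was Aurkb, the kinase of the chromosomal passenger complex, whose single probe was not well above background on any of the 12 arrays with a sound scanner file, so its level was not measured. The other 54 of the 55 probes of these genes were well above background on all 12, and none was saturated.

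Expression was profiled in D2A1 tumor cells (a breast cancer line from mouse) and in fibroblasts from mouse embryos (MEFs). The MEFs either carried Hsf1, the gene of the main transcription factor of the heat shock response (Hsf1 +/+, WT below), or lacked it (Hsf1 -/-, null below). Each cell type was grown alone, and tumor cells were grown together with WT or with null MEFs for 72 hours and then separated by fluorescence-activated sorting, all in DMEM with fetal calf serum. MEFs that partnered the profiled tumor cells had been treated with mitomycin C, a DNA crosslinker that stops division, at 10 ug/ml for 2 hours. The labels name no such treatment for the MEFs that were themselves profiled. The 7 groups had 2 arrays each, labelled A and B: tumor cells grown alone or with either MEF genotype, and each MEF genotype grown alone or with tumor cells. All A arrays lay on 1 slide and all B arrays on another. No label says that A and B came from separate cultures, so a p-value here reflects the spread between the arrays of a group and nothing more, and that spread may be technical.

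The transcripts of mitotic genes are made periodically. They are held down in G0 and G1 by the DREAM repressor complex, and in late S and G2 phase they are switched on by MuvB bound to B-Myb (Mybl2) and then FoxM1, a forkhead transcription factor that is itself in the set. The promoters of many carry a cell cycle homology region (CHR), to which MuvB binds, and CCAAT boxes, to which NF-Y binds. Because only dividing cells carry most of these mRNAs, their level in a bulk culture depends on how many cells are in G2 and mitosis. In arrays of whole populations, fewer dividing cells and less mRNA per dividing cell cannot be told apart.

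Sequence upstream of the start was available for 32 of the 39 genes in a RefSeq promoter table (GRCm38.p6). In the 250 bases before the start, CCAAT (either strand) occurred in 26 of the 34 listed windows of these genes (76.5%), against 33.9% of all 32851 windows in the table. At least 2 copies occurred in 47.1% of the windows of these genes and in 10.1% of all windows. The CHR letters TTTGAA occurred in 32.4% of windows against 15.99%. The variant TTCGAA occurred in 5.88% against 1.34%. Either form of the CHR together with a CCAAT box occurred in 32.4% against 6.02%. A match describes letters in the window and is not a measured binding site. The 120 bases before the start are shown for 7 genes on which the results turn, with every CCAAT box and CHR, on either strand, in capitals. Racgap1, Espl1 and Bub1 are among the genes that differed most between tumor cells and MEFs, Cdca8 was lower in tumor cells in both co-cultures, Ube2c differed most between MEF genotypes in the downward direction, Kif11 departed from the rest of the set, and Cdc20 varied least after Mki67.
Racgap1, chr15:99651657-99651776, minus strand: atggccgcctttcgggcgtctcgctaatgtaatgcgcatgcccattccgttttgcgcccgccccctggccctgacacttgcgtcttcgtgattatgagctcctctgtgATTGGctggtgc
Espl1, chr15:102296173-102296292, plus strand: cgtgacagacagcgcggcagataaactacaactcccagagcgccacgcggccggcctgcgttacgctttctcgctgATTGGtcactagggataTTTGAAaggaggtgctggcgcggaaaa
Bub1, chr2:127831860-127831979, minus strand: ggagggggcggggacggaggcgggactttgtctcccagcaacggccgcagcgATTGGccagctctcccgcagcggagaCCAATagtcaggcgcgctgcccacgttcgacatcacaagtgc
Cdca8, chr4:124936918-124937037, minus strand: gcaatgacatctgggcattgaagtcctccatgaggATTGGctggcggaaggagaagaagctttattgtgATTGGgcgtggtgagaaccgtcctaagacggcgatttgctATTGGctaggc
Ube2c, chr2:164769809-164769928, plus strand: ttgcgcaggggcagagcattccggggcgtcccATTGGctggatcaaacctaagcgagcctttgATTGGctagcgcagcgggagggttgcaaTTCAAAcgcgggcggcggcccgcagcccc
Kif11, chr19:37376262-37376381, plus strand: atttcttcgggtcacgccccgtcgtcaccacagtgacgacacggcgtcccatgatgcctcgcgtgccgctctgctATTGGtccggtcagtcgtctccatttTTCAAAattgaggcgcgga
Cdc20, chr4:118437344-118437463, minus strand: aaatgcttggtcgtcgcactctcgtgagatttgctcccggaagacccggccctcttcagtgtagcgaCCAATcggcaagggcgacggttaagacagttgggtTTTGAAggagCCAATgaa
In the stretch shown, Ube2c, Kif11, Espl1 and Cdc20 held both kinds of letters, whereas Racgap1, Bub1 and Cdca8 held the CCAAT box alone.

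Before the comparisons, 3 facts of the arrays bear on what follows. The scanner files of tumor cells alone A and of tumor cells with null MEFs A were faulty, with 32.1% and 36.8% of spots flagged as outliers against 0.246% to 5.75% on the others. The values used are therefore the authors' deposited log2 levels, which covered all 14 arrays and in which the lowest correlation between any 2 arrays was 0.935. How the deposited levels of those 2 arrays were made is not given in the sources used here, and 1 of the 2 arrays of each of these groups rests on them. As a check of the labels, the log2 level of Hsf1 was 11.85 ± 0.22 (SD, n = 2) in the WT cultures without tumor cells and 10.02 ± 0.07 in the null ones. They differed by 1.83 ± 0.12 (SE, limma adjusted p = 1.12e-06), and the probe still read above background in the null cells. RNA typical of the partner cells was measured in all sorted cells. Genes at least 32-fold higher in the partner had a median level of 34.3% and 35.2% of the partner's in WT MEFs sorted from tumor cells, 6.89% and 7.73% in null MEFs, 4.57% and 4.62% in tumor cells sorted from WT MEFs, and 8.48% (A) and 21.2% (B) in tumor cells sorted from null MEFs.

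**Figure D1:**
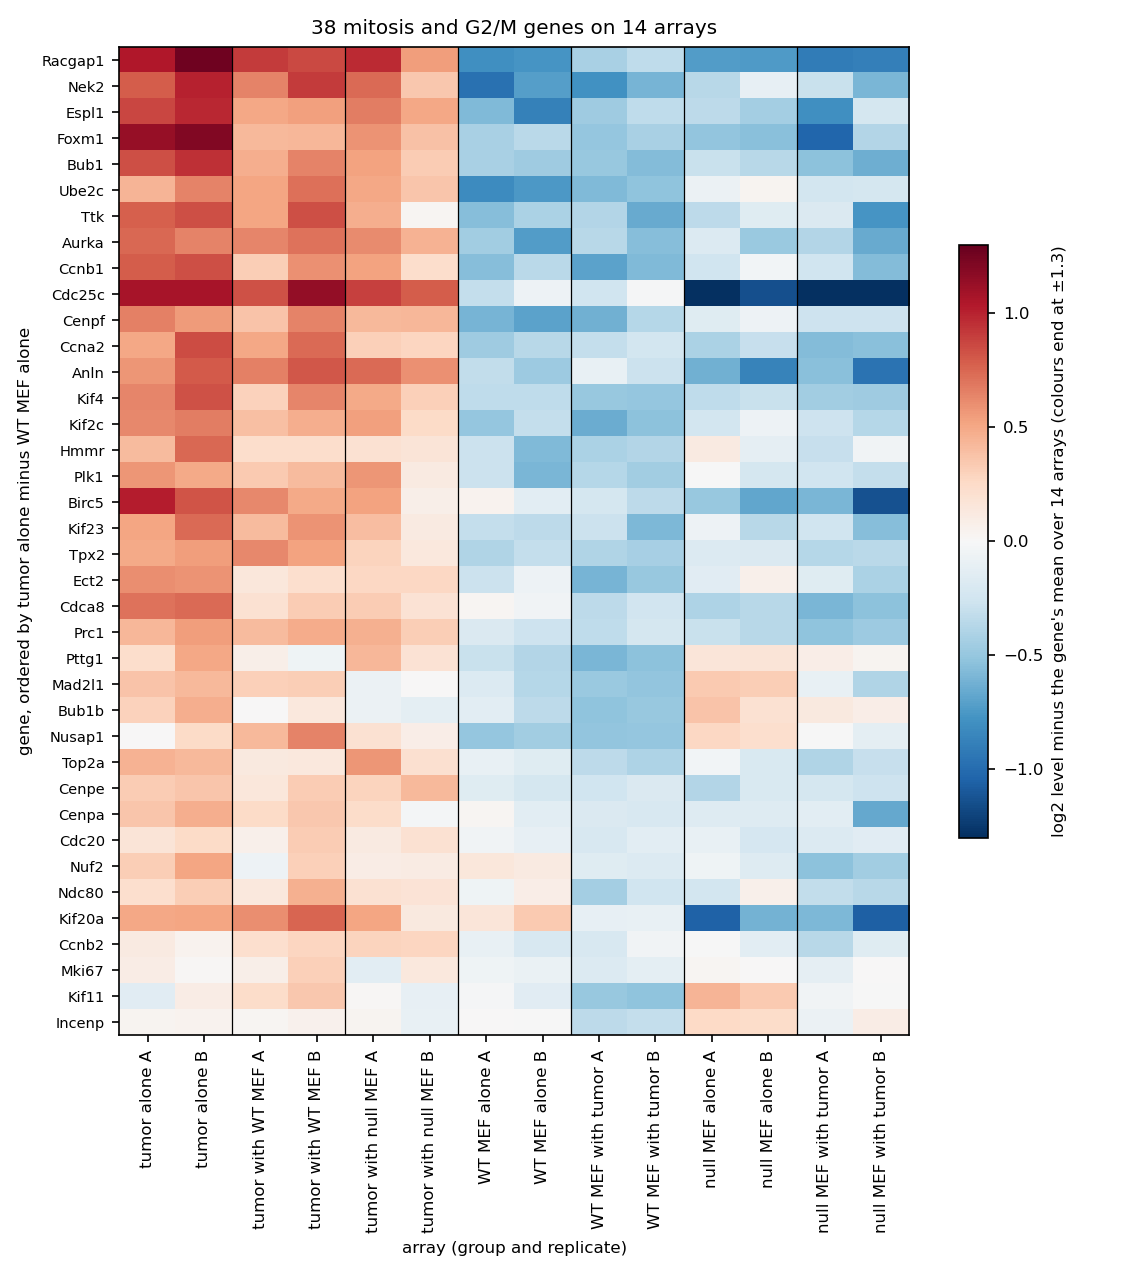
Log2 level of each of the 38 measured genes (rows) on each of the 14 arrays (columns, 2 per group), as the difference from the gene's own mean over the 14 arrays; red is above and blue below that mean. The 6 tumor cell arrays on the left are red for nearly all genes, with the largest departures in Cdc25c, Racgap1 and Foxm1, while Cdc20, Ccnb2, Mki67 and Incenp, in the lower rows, stay pale.

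Mitotic genes were higher in the tumor cells than in either MEF genotype. Grown alone, tumor cells exceeded WT MEFs in all 38 genes in sign, by a median log2 difference of 0.91, and 30 genes passed the test (limma, adjusted p under 0.05 over all tested genes) as higher and 0 as lower. At an unadjusted p under 0.05, for which shares of all genes were not counted here or below, 31 were higher and 0 lower. Against this stands a wide difference between the cell types as a whole: 27.8% of all tested genes passed as higher and 23.6% as lower, with a median over all genes of 0.08. In sign, 56.15% of all tested genes were positive. Against null MEFs the median was 0.71, with 30 genes higher and 1 lower, where 27.3% of all genes passed as higher and 25.4% as lower. These comparisons use the same tumor cell arrays. Over the 14 arrays, 28 of the 38 genes read higher on every tumor cell array than on every MEF array, as did 12.2% of all tested genes.

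Against WT MEFs the largest differences were those of Racgap1, Nek2, Espl1 and Foxm1, and against null MEFs those of Cdc25c, Racgap1, Foxm1 and Birc5. Racgap1, the GTPase-activating subunit of the centralspindlin complex that marks the division plane, read 15.30 (A) and 15.53 (B) in tumor cells alone, 13.46 and 13.49 in WT MEFs alone and 13.54 and 13.53 in null MEFs alone. Its probes lie at chr15:99451718-99451777 and chr15:99451768-99451827 (mm9, minus strand, positions as the scanner files give them). The arrays did not overlap between cell types, and the differences were 1.94 ± 0.14 (SE, 3.84-fold, adjusted p = 8.48e-07) from WT MEFs and 1.88 ± 0.14 (3.68-fold, adjusted p = 1.07e-06) from null MEFs. Foxm1 read 12.53 and 12.60 in tumor cells alone, against 10.98 and 11.05 in WT and 10.89 and 10.86 in null MEFs. That amounted to 1.56 ± 0.17 and 1.70 ± 0.17. Nek2, a kinase that splits the centrosomes at mitotic entry, was 12.90 and 13.11 in tumor cells, 11.14 and 11.40 in WT MEFs and 11.75 and 12.00 in null MEFs. Here the null MEFs lay between the other groups, and the differences were 1.74 ± 0.18 and 1.13 ± 0.18. Espl1, which encodes separase, the protease that cuts cohesin at anaphase, differed by 1.65 ± 0.18 and 1.31 ± 0.18.

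**Figure D2:**
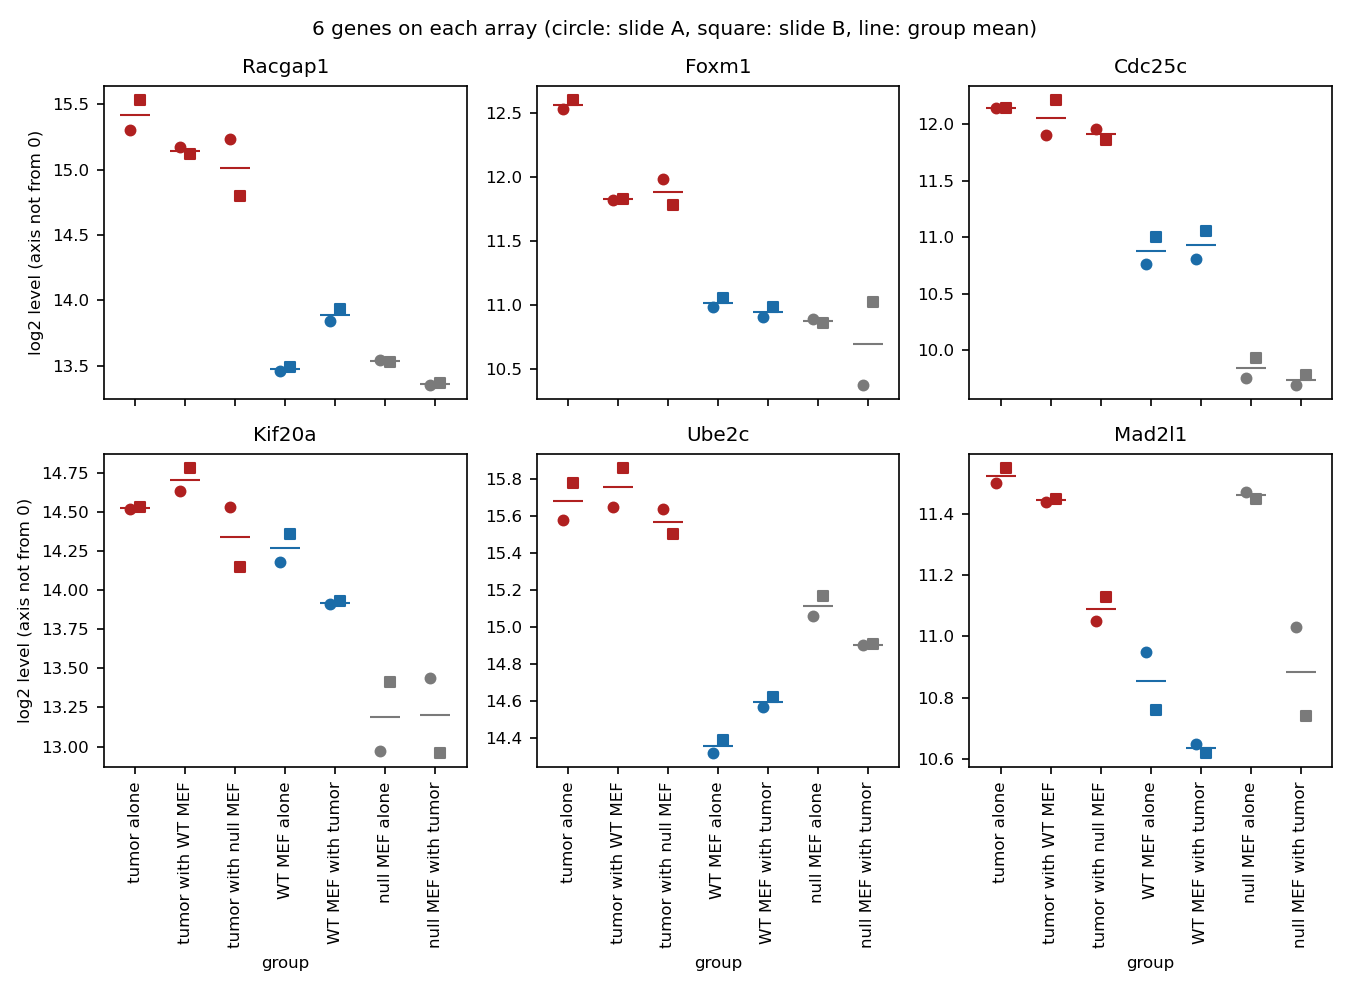
Log2 level on each array of Racgap1, Foxm1, Cdc25c, Kif20a, Ube2c and Mad2l1 in the 7 groups; circles are slide A, squares slide B, the line is the group mean, and the axes do not start at 0. Racgap1 and Foxm1 separate tumor cells from both MEF genotypes, Cdc25c and Kif20a are lowest in null MEFs, Ube2c is lowest in WT MEFs, and Mad2l1 in null MEFs alone (11.47 and 11.45) lies at the level of tumor cells alone (11.50 and 11.55).

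Cdc25c, the phosphatase that activates cyclin B-Cdk1, spread most over the 7 groups, with group means 2.41 apart. It read 12.14 on both arrays of tumor cells alone, 10.76 and 11.00 in WT MEFs alone and 9.75 and 9.93 in null MEFs alone. The 3 groups did not overlap, and tumor cells were above WT MEFs by 1.26 ± 0.14 and above null MEFs by 2.30 ± 0.14 (4.93-fold, adjusted p = 2.56e-07).

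Of all tested genes, 27.8% passed as higher in tumor cells than in WT MEFs and 27.3% than in null MEFs. Some genes of the set have several roles and count under each. By role, 8 of the 9 measured cyclins and kinases were higher in tumor cells than in WT MEFs and 7 than in null MEFs, with medians of 1.27 and 1.02. They include Bub1 (1.34 ± 0.11 and 1.22 ± 0.11), Aurka (1.28 ± 0.15 and 1.02 ± 0.15), Ttk (1.29 ± 0.21 and 1.06 ± 0.21), Ccnb1 (1.27 ± 0.16 and 0.97 ± 0.16), Ccna2 (1.09 ± 0.13 and 1.03 ± 0.13) and Plk1 (0.98 ± 0.16 and 0.65 ± 0.16). All 6 cytokinesis genes were higher than in null MEFs and 5 of 6 than in WT MEFs, where Kif20a, a kinesin of the central spindle, was the one that did not pass (0.26 ± 0.19). Of the 5 spindle assembly genes, all 5 were higher than in WT MEFs and 4 than in null MEFs, among them Tpx2, which activates Aurora A on the spindle (0.86 ± 0.10 and 0.70 ± 0.10). The 5 centromere and kinetochore genes moved less, with medians of 0.48 and 0.58. Cenpf, a large kinetochore protein, was the exception at 1.25 ± 0.12 from WT MEFs, and Cenpa, the centromeric histone, differed by 0.48 ± 0.16. The separate probes of Nuf2, an Ndc80 complex subunit, disagreed: by scanner intensity they gave -0.76 and 1.61 from WT MEFs, so its direction is uncertain. The probes of Mad2l1 also disagreed in sign against null MEFs, at -0.19 and 0.84 for the outermost.

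**Figure D3:**
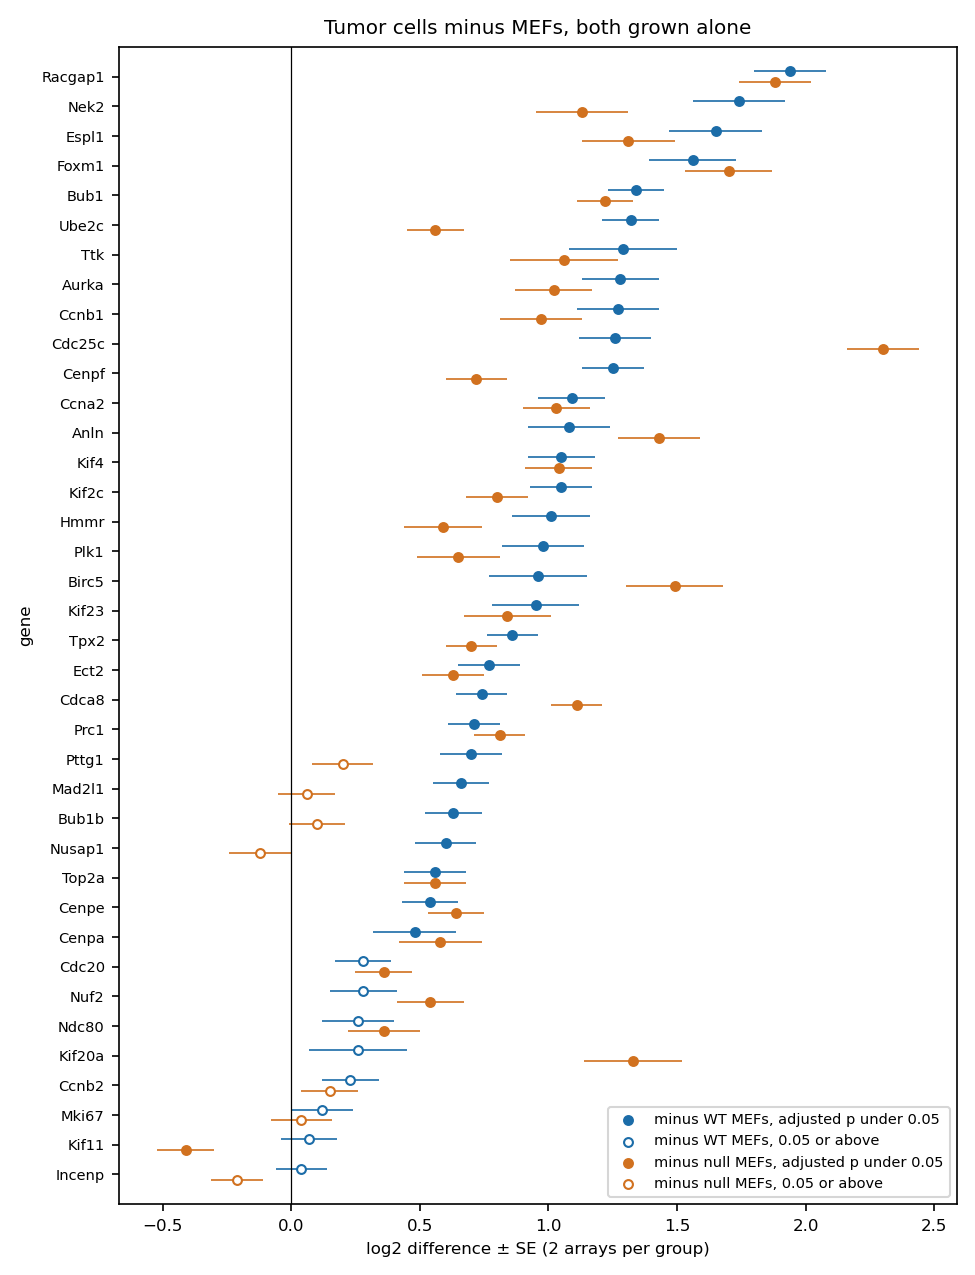
Log2 difference of tumor cells minus WT MEFs (blue) and minus null MEFs (orange), all grown alone, for the 38 genes; bars are the SE of the fit with 2 arrays per group, and filled points have an adjusted p under 0.05. All 38 points against WT MEFs lie at or right of 0, from 0.04 for Incenp to 1.94 for Racgap1, and Kif11 is the only filled point left of 0.

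Mki67, Cdc20 and Ccnb2 had the smallest spans of group means in the deposited values. Mki67, which encodes the Ki-67 antigen, read 15.43 and 15.35 in tumor cells alone, 15.28 and 15.25 in WT MEFs and 15.36 and 15.34 in null MEFs, and its 7 group means spanned only 0.34. Cdc20, the activator of the anaphase-promoting complex, spanned 0.37, and Ccnb2, a B-type cyclin, spanned 0.55. The spans were small, but every tumor cell array read above every MEF array in Cdc20 and Ccnb2, and Cdc20 passed against null MEFs (0.36 ± 0.11, adjusted p = 0.0181). These 3 genes had their lowest arrays at 15.16, 15.11 and 14.99. The scanner intensities of the sound arrays, scaled by the 75th percentile, gave larger differences. In that fit tumor cells alone have 1 array, which is assumed to vary like the other groups. There Mki67 was higher in tumor cells by 0.95 than in WT MEFs (adjusted p = 0.00231) and by 0.90 than in null MEFs (0.00285), and Cdc20 by 1.11 (0.0210) and 1.17 (0.0167). With background-corrected and quantile-normalised intensities the Mki67 difference from WT MEFs was 0.35 (adjusted p = 0.0383). The median over the 38 genes was 1.25 from WT and 1.10 from null MEFs with the scanner intensities, where the medians over all genes were 0.24 and 0.26. In those intensities 38 and 37 of the 38 genes had a positive difference, so the sizes moved with the scaling more than the signs did.

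Kif11, the plus-end kinesin that pushes the spindle poles apart, went against the rest. It read 10.96 and 11.21 in tumor cells alone, 11.09 and 10.96 in WT MEFs and 11.55 and 11.45 in null MEFs, and was lower in tumor cells than in null MEFs by -0.41 ± 0.11 (adjusted p = 0.0109). In the scanner intensities that difference was -0.11 (adjusted p = 0.687), so the call does not hold there. Incenp, the scaffold of the chromosomal passenger complex, differed by 0.04 ± 0.10 from WT and -0.21 ± 0.10 from null MEFs, the latter turning to 0.34 in the scanner intensities. The other measured members of that complex, Birc5 (survivin) and Cdca8 (borealin), were higher in tumor cells by 0.96 ± 0.19 and 0.74 ± 0.10 than in WT MEFs and by 1.49 ± 0.19 and 1.11 ± 0.10 than in null MEFs.

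WT and null MEFs differed in a mixed pattern. The sample titles name only the genotype of the MEFs, so a difference between genotypes cannot be told apart from one between MEF stocks. Grown alone, 3 genes were higher and 9 lower in WT than in null MEFs, with a median of -0.11. Shares of all tested genes that passed were 15.9% higher and 17.9% lower, so the count for these genes (12 of 38) was near the background. With tumor cells, 5 genes were higher and 5 lower, with a median of -0.03, where 14.8% of all genes were higher and 14.7% lower. The arrays of these comparisons are separate, and 6 genes passed in the same direction in both, out of 12 alone and 10 with tumor cells: Cdc25c and Kif20a as higher, and Bub1b, Kif11, Nusap1 and Pttg1 as lower in WT. How many of all tested genes passed in both was not counted, so this overlap has no background beside it.

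Cdc25c showed the steadiest genotype difference. WT MEFs read 10.76 and 11.00 alone and 10.81 and 11.05 with tumor cells, and null MEFs 9.75 and 9.93 alone and 9.69 and 9.78 with tumor cells. No WT array overlapped a null array, and WT exceeded null by 1.04 ± 0.14 alone (2.05-fold, adjusted p = 0.00019) and by 1.20 ± 0.14 with tumor cells (2.30-fold, adjusted p = 9.99e-05). Kif20a read 14.18 and 14.36 in WT MEFs alone, 13.91 and 13.93 in WT MEFs with tumor cells, 12.97 and 13.41 in null MEFs alone, and 13.44 and 12.96 in null MEFs with tumor cells. Its differences were 1.08 ± 0.19 and 0.72 ± 0.19, and the A and B arrays of the null groups varied more than those of WT. Cdca8 was higher in WT MEFs alone by 0.37 ± 0.10 (adjusted p = 0.0143). Higher with tumor cells were also Birc5 (0.57 ± 0.19), Anln, which encodes the contractile ring scaffold anillin (0.57 ± 0.16), and Racgap1 (0.52 ± 0.14). These genes were also higher in tumor cells than in either MEF genotype. Sorted WT MEFs held more tumor-typical RNA (34.3% and 35.2%) than sorted null MEFs (6.89% and 7.73%). The part of that RNA in the genotype differences with tumor cells was not tested.

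In the other direction stood Ube2c, the ubiquitin-conjugating enzyme of the anaphase-promoting complex. It read 14.32 and 14.39 in WT MEFs alone and 15.06 and 15.17 in the null ones. Without overlap, they differed by -0.76 ± 0.11 (adjusted p = 0.000383). With tumor cells it read 14.57 and 14.62 in WT and 14.90 and 14.91 in null MEFs, a difference of -0.31 ± 0.11 that did not pass (adjusted p = 0.0653). Nusap1, which bundles spindle microtubules, was lower in WT by -0.72 ± 0.12 alone and -0.44 ± 0.12 with tumor cells. Pttg1 (securin, the separase inhibitor) was lower by -0.50 ± 0.12 and -0.63 ± 0.12, Bub1b (the checkpoint kinase-like protein BubR1) by -0.52 ± 0.11 and -0.61 ± 0.11, and Kif11 by -0.48 ± 0.11 in both settings. Mad2l1, the checkpoint protein Mad2, read 10.95 and 10.76 in WT MEFs alone and 11.47 and 11.45 in null MEFs alone (-0.60 ± 0.11, adjusted p = 0.00199). Nek2 (-0.60 ± 0.18), Cenpf (-0.53 ± 0.12) and Hmmr, a spindle-associated hyaluronan receptor (-0.43 ± 0.15), were also lower in WT MEFs alone, and Incenp (-0.34 ± 0.10) with tumor cells. Cenpf, the dimmest measured gene, did not pass in either fit of the scanner intensities.

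**Figure D4:**
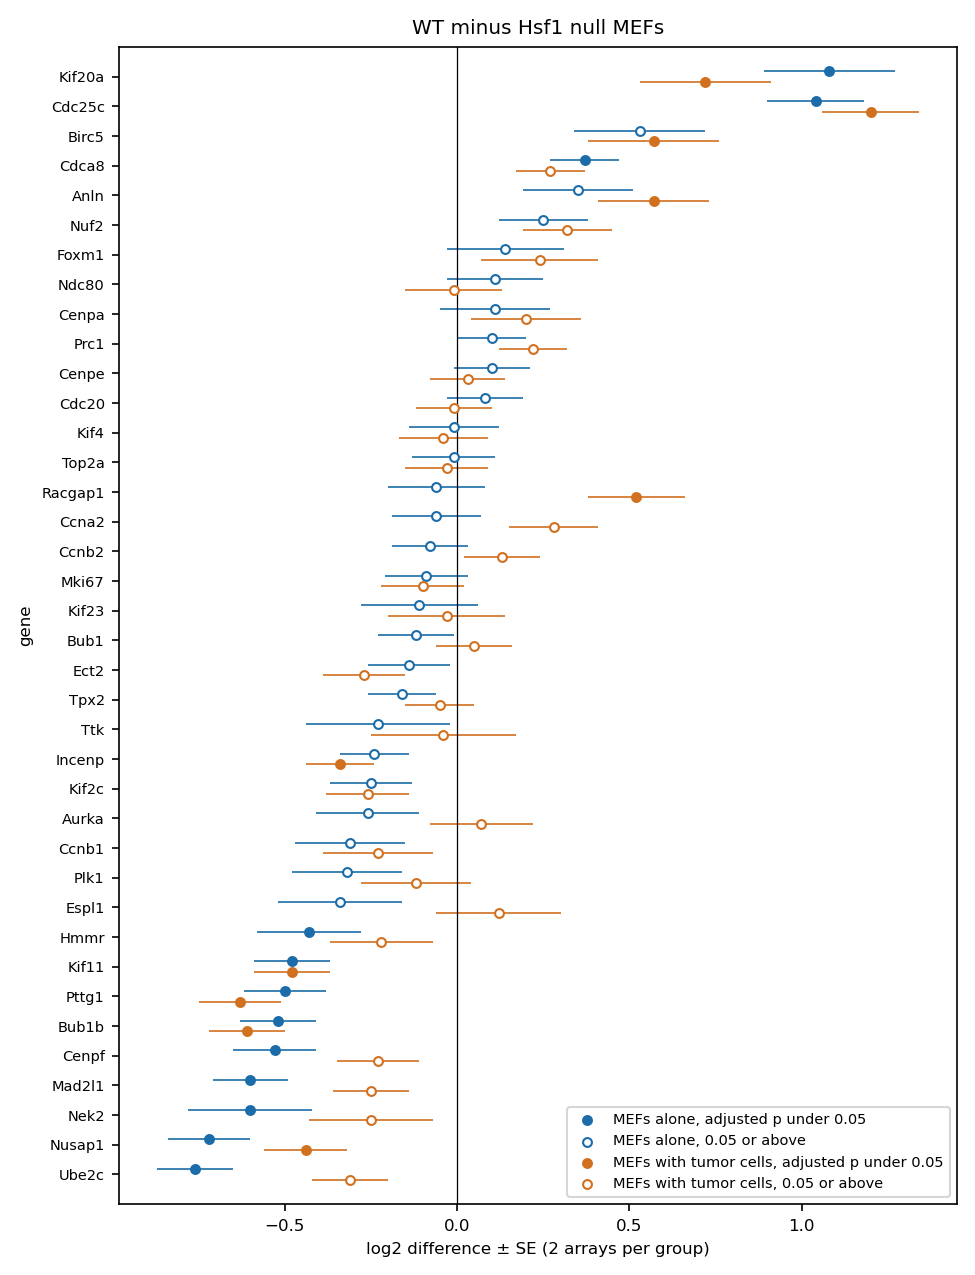
Log2 difference of WT minus null MEFs for the 38 genes, alone (blue) and with tumor cells (orange); bars are the SE of the fit with 2 arrays per group, and filled points have an adjusted p under 0.05. Cdc25c and Kif20a lie right of 0.7 in both settings, and Ube2c, Nusap1, Nek2, Mad2l1, Cenpf, Bub1b, Pttg1 and Kif11 have the lowest differences between MEFs grown alone.

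Without 1 array the count alone was 8 to 10. With tumor cells it was 4 without WT MEFs A or without WT MEFs B, all among the 10. It was 9 without null MEFs A (8 of the 10) and 7 without null MEFs B (5 of the 10). On the scanner intensities 6 genes passed alone, all of them among the 12, and 5 with tumor cells, all among the 10. Cdc25c passed in all 10 alternatives tried in both settings. So did Kif20a, Mad2l1, Nusap1 and Ube2c alone, and Bub1b and Pttg1 with tumor cells. Among the others, Hmmr kept its call alone in 2 of 10, and Birc5 its call with tumor cells in 4 of 10.

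In tumor cells, a small number of these genes were lower after co-culture. With null MEFs 6 genes fell and 0 rose, and 35 of the 38 had a negative difference, with a median of -0.28. Of all tested genes 10.1% rose and 9.60% fell, 39.5% were positive, and their median was -0.09. With WT MEFs 2 genes fell and 0 rose, 28 of 38 were negative, and the median was -0.12. There 7.04% of all genes rose and 4.77% fell, 44.2% were positive, and their median was -0.04. At an unadjusted p under 0.05, 0 rose and 15 fell with null MEFs, and 2 rose and 11 fell with WT MEFs. The shares of all genes that rose or fell are at the adjusted threshold, and none was counted at the unadjusted one. Tumor cells alone are the control in both comparisons, so they are not independent.

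Foxm1 was lower in both co-cultures. It read 12.53 and 12.60 alone, 11.82 and 11.83 with WT MEFs, and 11.98 and 11.78 with null MEFs, so neither co-culture overlapped the control. The differences were -0.74 ± 0.17 (1.68-fold, adjusted p = 0.0202) with WT and -0.69 ± 0.17 (1.61-fold, adjusted p = 0.0204) with null MEFs. Cdca8 read 14.22 and 14.25 alone, 13.71 and 13.84 with WT MEFs, and 13.84 and 13.70 with null MEFs. That was -0.46 ± 0.10 in each (adjusted p = 0.0139 and 0.00867), again without overlap. Both genes kept a negative difference in all 10 alternatives, but Foxm1 passed in 4 of them with WT and 5 with null MEFs, and Cdca8 in 4 and 6. On scanner intensities neither gene passed in either co-culture.

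With null MEFs the other genes that fell were 3 of the 4 spindle checkpoint genes, Bub1 (-0.48 ± 0.11), Bub1b (-0.49 ± 0.11) and Mad2l1 (-0.43 ± 0.11), and Birc5 (-0.62 ± 0.19). Ttk, the kinase Mps1 at the head of the checkpoint, had a difference of -0.56 ± 0.21 that did not pass (adjusted p = 0.0869). Mad2l1 read 11.50 and 11.55 alone, 11.44 and 11.45 with WT MEFs and 11.05 and 11.13 with null MEFs, so only the last group stood apart. Birc5 read 14.51 and 14.31 alone and 14.01 and 13.57 with null MEFs. All of these calls kept their sign in the 10 alternatives, but Bub1 passed in 7 of them, Bub1b in 5, Birc5 in 4 and Mad2l1 in 3. Mad2l1 did not pass when any array of this comparison was left out.

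The slides differed in size. With null MEFs the median difference was -0.12 on slide A and -0.39 on slide B, and Racgap1, for example, differed by -0.07 on A and -0.73 on B. The array of tumor cells with null MEFs B was also the tumor cell array with the most MEF-typical RNA (21.2% against 8.48% on A), and the part of that RNA in these differences was not tested. Without that array 0 genes passed. The count was 1 without tumor cells alone B, 5 without tumor cells alone A (3 of the 6) and 8 without tumor cells with null MEFs A (5 of the 6). With WT MEFs, where both slides had 4.57% and 4.62%, the medians were -0.15 and -0.10, and 0 genes passed without tumor cells with WT MEFs A or tumor cells alone A. Without tumor cells with WT MEFs B 1 of the 2 fallen genes passed, and without tumor cells alone B neither did, while 1 other gene passed as higher. The scanner intensities of the sound arrays, in which tumor cells alone have 1 array, gave medians of -0.60 with null MEFs and -0.31 with WT MEFs, with 3 and 0 genes passing. Centring each array on its median gave 11 and 4.

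**Figure D5:**
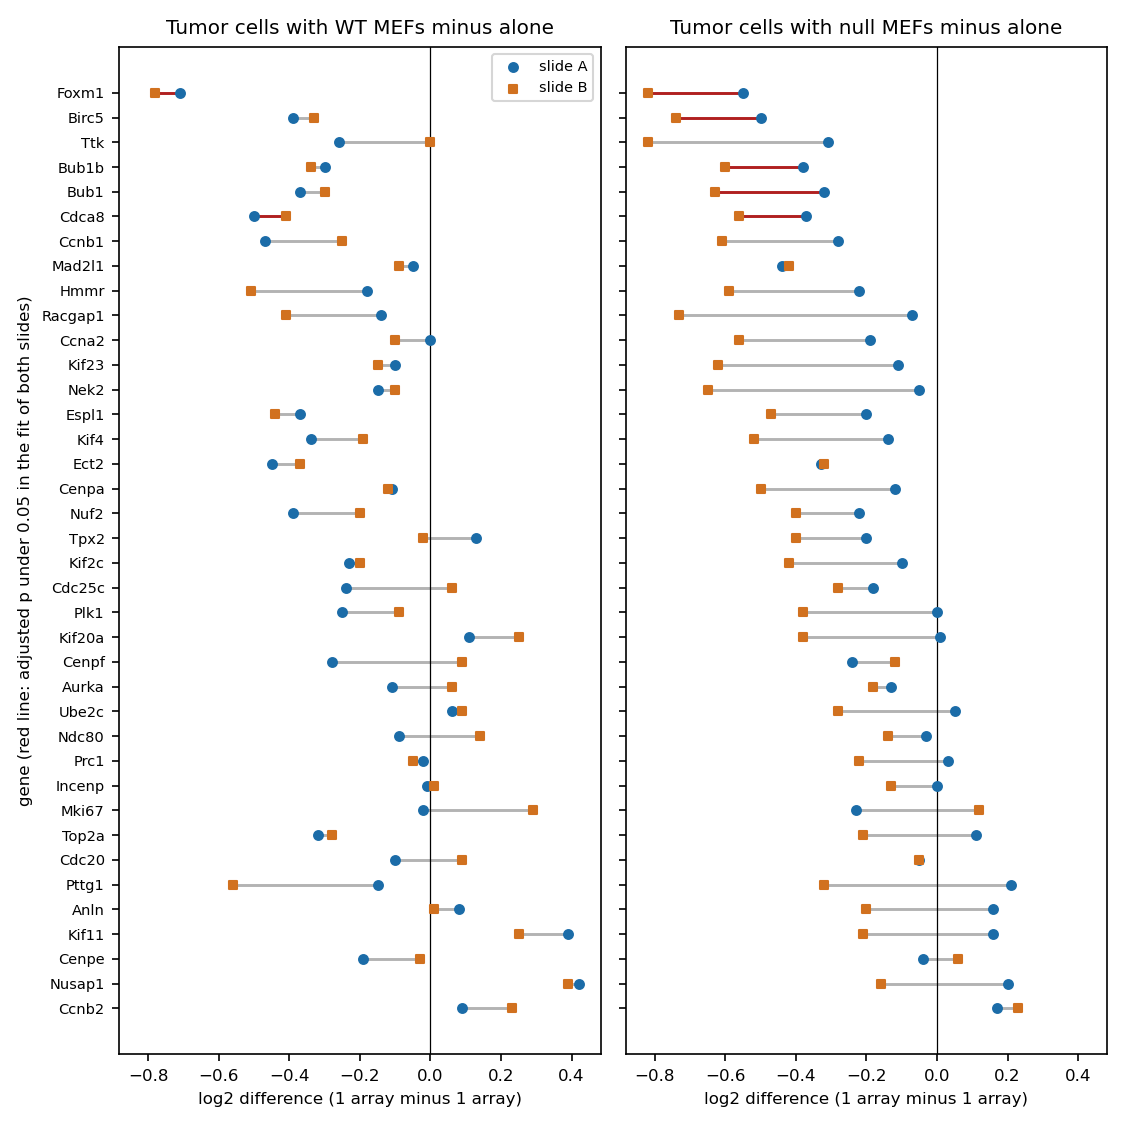
Log2 difference of tumor cells in co-culture minus tumor cells alone for the 38 genes, with WT MEFs (left) and null MEFs (right); circles are slide A, squares slide B, each 1 array minus 1 array, and red lines mark an adjusted p under 0.05 in the fit of both slides. With null MEFs most squares lie left of their circles, while Foxm1 and Cdca8 are left of 0 on both slides in both panels.

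Comparing the partners directly, tumor cells with WT MEFs exceeded those with null MEFs in 31 of 38 genes in sign, by a median of 0.10 (-0.05 on slide A and 0.27 on slide B). Of all tested genes 56.4% were positive, with a median of 0.04. 1 gene, Tpx2, passed as higher (0.35 ± 0.10, adjusted p = 0.0438) and 0 as lower, where 4.11% of all genes were higher and 5.38% lower. At an unadjusted p under 0.05 there were 5 and 1, with no share of all genes at that threshold. Tpx2 read 11.94 and 11.84 with WT MEFs and 11.61 and 11.46 with null MEFs. It did not pass without either array with WT MEFs or without null MEFs B, nor on scanner intensities (0.45, adjusted p = 0.203).

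In MEFs, co-culture with tumor cells changed few of these genes. In WT MEFs 1 gene fell and 0 rose, with a median of -0.08 over the 38 genes and 6.31% of all genes rising and 4.20% falling. The gene was Kif11, which read 11.09 and 10.96 alone and 10.62 and 10.59 with tumor cells, -0.42 ± 0.11 (adjusted p = 0.0400). It did not pass when any 1 of the 4 arrays was left out. In null MEFs 1 gene fell and 0 rose, where 2.81% of all genes rose and 0.332% fell. That gene was Mad2l1, which read 11.47 and 11.45 alone and 11.03 and 10.74 with tumor cells, -0.58 ± 0.11 (adjusted p = 0.0186). It passed without null MEFs with tumor cells A, and did not pass without any of the other 3 arrays. In null MEFs 36 of 38 genes had a negative difference, with a median of -0.19, where 40.1% of all genes were positive and the median of all genes was -0.04. At an unadjusted p under 0.05, again without a share of all genes at that threshold, 0 rose and 6 fell in null MEFs, and 1 rose and 7 fell in WT MEFs.

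Sorted WT MEFs carried more tumor-typical RNA than sorted null MEFs (above). The epithelial markers had the same order but not the same size. The log2 of their summed level was 10.43 and 10.59 in WT MEFs alone and 16.18 and 16.39 after co-culture. In null MEFs it was 12.04 and 12.30 alone and 14.78 and 15.34 after co-culture, and in tumor cells alone 16.50 and 16.56. The sum in sorted WT MEFs thus lay nearer the tumor cell level than the 34.3% and 35.2% of the tumor-typical genes. Of the 13 markers, 9 were above background in WT MEFs alone and 10 after co-culture, and 10 and 12 in null MEFs. In tumor cells alone 7 of 13 were above background, with Epcam, Cdh1 and Krt19 among those that were not. The part of tumor cell RNA in the MEF values was not tested.

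The change in WT MEFs was then set against that in null MEFs. The difference of the responses (an interaction term) passed in 0 of 38 genes with limma, where 1.96% of all genes passed as higher and 1.07% as lower. At an unadjusted p under 0.05, 2 genes were higher and 0 lower, with no share of all genes at that threshold. Racgap1 had the largest value, 0.58 ± 0.20 (adjusted p = 0.204). It read 13.46 and 13.49 in WT MEFs alone and 13.84 and 13.93 with tumor cells, but 13.54 and 13.53 in null MEFs alone and 13.35 and 13.37 with tumor cells. With quantile-normalised scanner intensities it passed (0.64, adjusted p = 0.0435), and it was the gene with the widest gap between tumor cells and WT MEFs, whose sorted cells held the most tumor-typical RNA. The part of that RNA in the Racgap1 values was not tested.

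Further genes of the pathway were taken from lists that do not overlap the set, also chosen with earlier results of these data known. Of 65 other mitosis and G2/M genes, 45 (69.2%) were higher and 2 (3.08%) lower in tumor cells than in WT MEFs, with a median of 0.62. Against null MEFs 34 (52.3%) were higher and 3 (4.62%) lower, with a median of 0.46. The shares of all genes were 27.8% and 23.6% against WT MEFs, and 27.3% and 25.4% against null MEFs. The highest included Troap (1.78 ± 0.15), Hjurp, the chaperone that loads Cenpa (1.60 ± 0.12), and Cdc25b (1.42 ± 0.12), another activating phosphatase. The exceptions were H2afx, the histone variant phosphorylated at DNA breaks (-1.56 ± 0.18), and Cenpw, a kinetochore protein (-0.77 ± 0.13). In tumor cells with null MEFs 6 of the 65 (9.23%) fell and 0 rose, near the 9.60% of all genes that fell, among them Lmnb1, a nuclear lamin (-0.70 ± 0.17). In tumor cells with WT MEFs 2 (3.08%) rose and 0 fell, against 7.04% and 4.77% of all genes. Between partners 5 (7.69%) were higher with WT MEFs and 0 lower, against 4.11% and 5.38%. Between MEF genotypes alone 2 (3.08%) were higher and 19 (29.2%) lower in WT, against 15.9% and 17.9% of all genes, with a median of -0.25. Cenpw was the furthest, at -1.28 ± 0.13 alone and -1.68 ± 0.13 with tumor cells.

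Subunits of the anaphase-promoting complex and the checkpoint were counted separately. Of 21, 4 were higher and 7 lower in tumor cells than in WT MEFs, with a median of -0.21. These shares, 19% and 33.3%, lie near those of all genes (27.8% and 23.6%), and against null MEFs 5 were higher and 4 lower, with a median of -0.04. Mad2l2 was lower (-1.34 ± 0.13), and Anapc1, the largest subunit, higher (0.81 ± 0.13). In WT against null MEFs alone 7 (33.3%) were higher and 1 (4.76%) lower, against 15.9% and 17.9% of all genes. The higher ones included Cdc23 (1.29 ± 0.23) and Cdc16 (0.72 ± 0.12), core subunits of the complex. Of 40 DNA replication genes, 22 (55%) were higher and 0 lower in tumor cells than in WT MEFs (median 0.46). But 15 (37.5%) were higher and 5 (12.5%) lower than in null MEFs (median 0.17), against 27.3% and 25.4% of all genes. Of these 40, 8 (20%) fell and 0 rose in tumor cells with null MEFs, where 9.60% of all genes fell and 10.1% rose. Those that fell included Ccne1, the G1/S cyclin (-0.63 ± 0.09), and Rrm1, a ribonucleotide reductase subunit (-0.61 ± 0.11). In WT MEFs 13 (32.5%) were lower and 1 (2.5%) higher than in null MEFs alone, against 17.9% and 15.9% of all genes. With tumor cells 17 (42.5%) were lower and 1 (2.5%) higher, against 14.7% and 14.8%. Mcm3, of the replicative helicase, was lower by -0.96 ± 0.16 and -0.99 ± 0.16.

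Of 23 regulators of mitotic transcription, 10 (43.5%) were higher and 3 (13%) lower in tumor cells than in WT MEFs, against 27.8% and 23.6% of all genes. Compared with null MEFs, 8 (34.8%) were higher and 2 (8.7%) lower, against 27.3% and 25.4%. Mybl2, the MuvB partner B-Myb, was higher in tumor cells than in WT MEFs by 2.09 ± 0.18. In co-culture it fell by 0.81 on the log2 scale with WT and 0.83 with null MEFs (adjusted p = 0.0152 and 0.00946), the direction Foxm1 also took. In tumor cells with WT MEFs 1 of the 23 (4.35%) rose and 2 (8.7%) fell, against 7.04% and 4.77% of all genes. With null MEFs 2 (8.7%) rose and 2 (8.7%) fell, against 10.1% and 9.60%. Lin37, of the same list, rose in both, by 0.42 ± 0.12 and 0.49 ± 0.12 (limma adjusted p = 0.045 and 0.017). E2f8, an atypical E2F repressor, was higher in tumor cells by 2.02 ± 0.18 and 2.23 ± 0.18. Trp53, the gene of p53, was lower in tumor cells by -2.02 ± 0.22 and -3.00 ± 0.22, and Cdkn1a, its target encoding the Cdk inhibitor p21, lower by -1.39 ± 0.21 than in WT MEFs. Between MEF genotypes Cdkn1a was higher in WT (1.05 ± 0.21 alone and 0.82 ± 0.21 with tumor cells) and Trp53 lower (-0.98 ± 0.22 and -1.82 ± 0.22). Nfya, a subunit of the CCAAT-binding factor NF-Y, was lower in WT MEFs by -0.91 ± 0.14 and -0.87 ± 0.14. Of the 23, 3 (13%) were higher and 6 (26.1%) lower in WT MEFs, alone and with tumor cells alike. The shares of all genes were 15.9% and 17.9% alone, and 14.8% and 14.7% with tumor cells.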

How the data were processed

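Expression was measured on 14 one-colour Agilent mouse arrays (design 028005). The deposited value table holds log2 levels, which the authors summarised to 1 line per gene name. How they scaled the log2 levels between arrays, and the centring, are not given in the sources used here, and array medians lay between 6.34 and 6.40. Compared with the scanner files, the levels of genes with several probes resembled most the mean of log2 over probes (r = 0.984). That value includes the differences between genes. With each gene's own mean taken off, r was 0.869 for these genes and 0.806 for genes with 1 probe. The deposited scanner files hold intensity values. Their headers name Feature Extraction 10.1.1.1, and the submitters' processing notes name version 9.1. Names came from the scanner files' probe annotation.

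Gene names well above background on both arrays of at least 1 group were tested with limma 3.58.1 in R 4.3.3 (lmFit and eBayes, 7 group means, 7 residual degrees of freedom). The flags of the 2 faulty scanner files were left out. P-values were adjusted by Benjamini-Hochberg over all tested genes within each of 10 comparisons, threshold 0.05. Scripts were tested on simulated data. SEs are those of the fit, and the number of arrays limits the precision. Deviations from the group means correlated between same-letter arrays by 0.0920 to 0.599 (median 0.298) over 21 pairs of groups. Alternatives were scanner intensities of the 12 sound arrays (scaled to the 75th percentile, or normexp with offset 50 and quantile normalisation), centring, the slide as a replicate block, no filter, each cell type fitted alone, and leaving out each array. The genes and lists were chosen with earlier results of these data known. All genes of the set may be named, and of each other list up to 4 genes per direction and comparison with the smallest adjusted p. Motifs were searched on both strands of 250 bases before the RefSeq start (GRCm38.p6).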

Additional observations from a re-analysis of the deposited data

How the results depend on the processing

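Each count of genes passing was recomputed under the alternatives. With the slide as a replicate block the count of passing genes was 4 for tumor cells with WT MEFs (1 rose, 3 fell) and 2 for WT MEFs with tumor cells, and the other counts stayed within 1.5 times. The deviations of same-letter arrays correlated positively in every pair of groups (median 0.298), and the letters coincide with the slides. The letters were not taken to pair the cultures, and the main fit has no term for the slide. On scanner intensities scaled to the 75th percentile, the counts were 0 for tumor cells grown with WT and 3 for those grown with null MEFs (1 of the 6), 0 between partners, 0 for WT and 0 for null MEFs with tumor cells, 6 between genotypes alone and 5 with tumor cells, with medians of -0.31, -0.60, 0.29, -0.10, -0.26, -0.15 and 0.04, of 0.15 for the difference of responses, and of 1.25 and 1.10 for tumor cells against WT and null MEFs. With normexp and quantile normalisation the counts were 0 for tumor cells with WT MEFs, 3 for WT MEFs with tumor cells and 1 for the difference of responses, with medians of -0.20 for null MEFs with tumor cells, 0.02 between genotypes with tumor cells and 0.72 for tumor cells against null MEFs. With each array centred on its median the counts were 4 and 11 for tumor cells with WT and null MEFs, 0 between partners and 2 for WT MEFs with tumor cells, with medians of -0.18 for tumor cells with WT MEFs, -0.12 and -0.20 for WT and null MEFs with tumor cells, and 1.01 and 0.82 for tumor cells against WT and null MEFs. Without a filter 0 passed between partners and 0 in WT MEFs with tumor cells. With each cell type fitted alone the counts were 1 and 1 for tumor cells with WT and null MEFs, 0 between partners, 2 for WT and 0 for null MEFs with tumor cells. The causes were not tested.

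Leaving out 1 array gave counts of 0 to 1 for tumor cells with WT MEFs, 0 to 8 with null MEFs, 0 to 1 between partners, 0 for WT MEFs and 0 to 1 for null MEFs with tumor cells, and 4 to 9 between genotypes with tumor cells. The medians ran from -0.22 to -0.02 for tumor cells with WT MEFs, -0.37 to -0.18 with null MEFs, 0.04 to 0.21 between partners, -0.05 to -0.02 between genotypes with tumor cells, -0.20 to -0.16 for null MEFs with tumor cells, 0.04 to 0.12 for the difference of responses, and 0.83 to 0.89 and 0.71 to 0.74 for tumor cells against WT and null MEFs. Of the genes that differed between tumor cells and MEFs, 29 of 30 still passed against WT and 27 to 29 of 31 against null MEFs. Among all genes, the share of calls that were higher was 59.6% for tumor cells with WT MEFs (80.8% on scanner intensities, 45.3% centred), 51.2% with null MEFs (74.4%, 41.1%, and 64.6% with normexp), 43.3% between partners (20.8%, and 29.2% with normexp) and 60.0% for WT MEFs with tumor cells (70.5% on scanner intensities). Only 2 arrays per group limit every value.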
